A study of Bos taurus with 30 samples.

Results

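The 88 nuclear genes examined here encode subunits of the 5 oxidative phosphorylation complexes, with a few assembly factors and regulators of the same gene families, in bovine endometrial epithelial and stromal cells. They were chosen by symbol, as every protein-coding gene named NDUF, SDHA to SDHD, UQCR, COX4 to COX8 followed by a letter, or ATP5, out of 27607 genes counted, of which 17468 had a name and 15677 of these were protein-coding. By complex they were 37 complex I subunits (7 core and 30 supernumerary), 8 complex I assembly factors of the NDUFAF series, 4 complex II, 8 complex III, 13 complex IV and 18 complex V genes. COX4I2, COX6A2, COX6C, COX7B2, COX7C, COX8B, COX8C and UQCRHL had no name entry and were not analysed here.

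Primary endometrial cells of nonpregnant cattle at the early luteal stage were cultured in a microfluidic device, with epithelial cells in the upper chamber and stromal cells in the lower chamber on either side of a porous membrane. Medium flowed for 3 days, and the RNA of each chamber was sequenced as a bulk library. In the glucose experiment the medium held 5 mM or 50 mM glucose. In the insulin experiment it held vehicle (acetic acid in phosphate-buffered saline), 1 ng/mL or 10 ng/mL insulin, all with 5 mM glucose. Every group had 3 libraries, numbered as replicates 1 to 3, which gave 30 libraries in all. The labels do not say that epithelial and stromal libraries of the same number share an animal, so p-values describe the spread between these libraries. In bulk RNA, fewer cells of a type and less RNA per cell cannot be told apart.

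Oxidative phosphorylation couples electron transfer in the inner mitochondrial membrane to ATP synthesis. Complexes I and II pass electrons from NADH and succinate to ubiquinone, complex III passes them on to cytochrome c, complex IV reduces oxygen, and complex V uses the resulting proton gradient to make ATP. Most subunits are encoded in the nucleus and imported, a small set including the membrane core of complex I is encoded in mitochondrial DNA, and complex II is wholly nuclear. The endometrial epithelium is the secretory layer that produces histotroph, while the stroma is fibroblastic and supports it.

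Total counts per library were 8826470 to 16647701, and 60 of the 88 genes had at least 100 counts in every library. Of the fixed marker lists, 14 epithelial markers together made up 7377 to 15050 CPM (the count of a gene per 1000000 counts of its library) in epithelial libraries. The upper end was epithelial 5 mM replicate 2, and the other epithelial glucose libraries had 7377 to 8498 CPM. The 14 stromal markers made up 54380 to 88970 CPM in stromal libraries except stromal 50 mM replicate 3, at 21460 CPM. That library also carried epithelial markers at 59.2% of the mean of the epithelial 50 mM group, against 15.1% and 11.7% in the other stromal 50 mM libraries, 0.755% to 5.47% in stromal 5 mM and 0.0157% to 3.91% in stromal insulin libraries. The part of this carry-over in the 50 mM results was not tested. Stromal markers were at 1612 to 6681 CPM in epithelial glucose and 1116 to 4144 CPM in epithelial insulin libraries. Smooth muscle and pericyte markers (4 of 4 measured) were at 995 to 6866 CPM in stromal glucose and 2649 to 4431 CPM in stromal insulin libraries. In epithelial libraries they were at 30.2 to 491 CPM (glucose) and 15.0 to 143 CPM (insulin). Over the 30 libraries, endothelial markers (3 of 4) ranged from 1.15 to 76.6 CPM and leukocyte markers (2 of 4) from 2.20 to 16.3 CPM.

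The 88 genes together took 0.237% to 0.420% of the counts of a library. Their summed level was higher in epithelial than in stromal cells in most pairs of libraries with the same number. In the insulin experiment the sum was 3641 to 4164 CPM in the 9 epithelial libraries (median 4116) and 2930 to 3815 CPM in the 9 stromal libraries (median 3278). In the glucose experiment it was 3094 to 4202 CPM in the 6 epithelial (median 3507) and 2366 to 3198 CPM in the 6 stromal libraries (median 2652). The epithelial to stromal ratio of the sums was 0.954 to 1.41 over the 9 insulin pairs (median 1.27) and 1.05 to 1.69 over the 6 glucose pairs (median 1.27).

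The ratio varied by complex. The summed level of complex II stood highest in epithelial relative to stromal libraries. Its median ratio was 1.49 in the insulin pairs (1.07 to 1.63) and 1.54 in the glucose pairs (1.18 to 1.81). Its genes differed in this. In insulin libraries the median of SDHD was 118.7 CPM in epithelial and 50.0 CPM in stromal cells. SDHA had 162.5 and 127.3 CPM, SDHC 21.4 and 15.2 CPM, and SDHB 45.0 and 44.7 CPM. In the insulin experiment complexes IV, V, III and I followed complex II with median ratios of 1.37, 1.32, 1.25 and 1.12. The NDUFAF assembly factors were the exception, with a ratio below 1 in every insulin pair (0.682 to 0.923, median 0.811). Their summed level was 49.0 to 59.9 CPM in the epithelial and 64.5 to 71.9 CPM in stromal insulin libraries, which did not overlap. In the glucose pairs the same sum was higher in the epithelial libraries (median ratio 1.33, range 0.958 to 1.45).

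**Figure D1:**
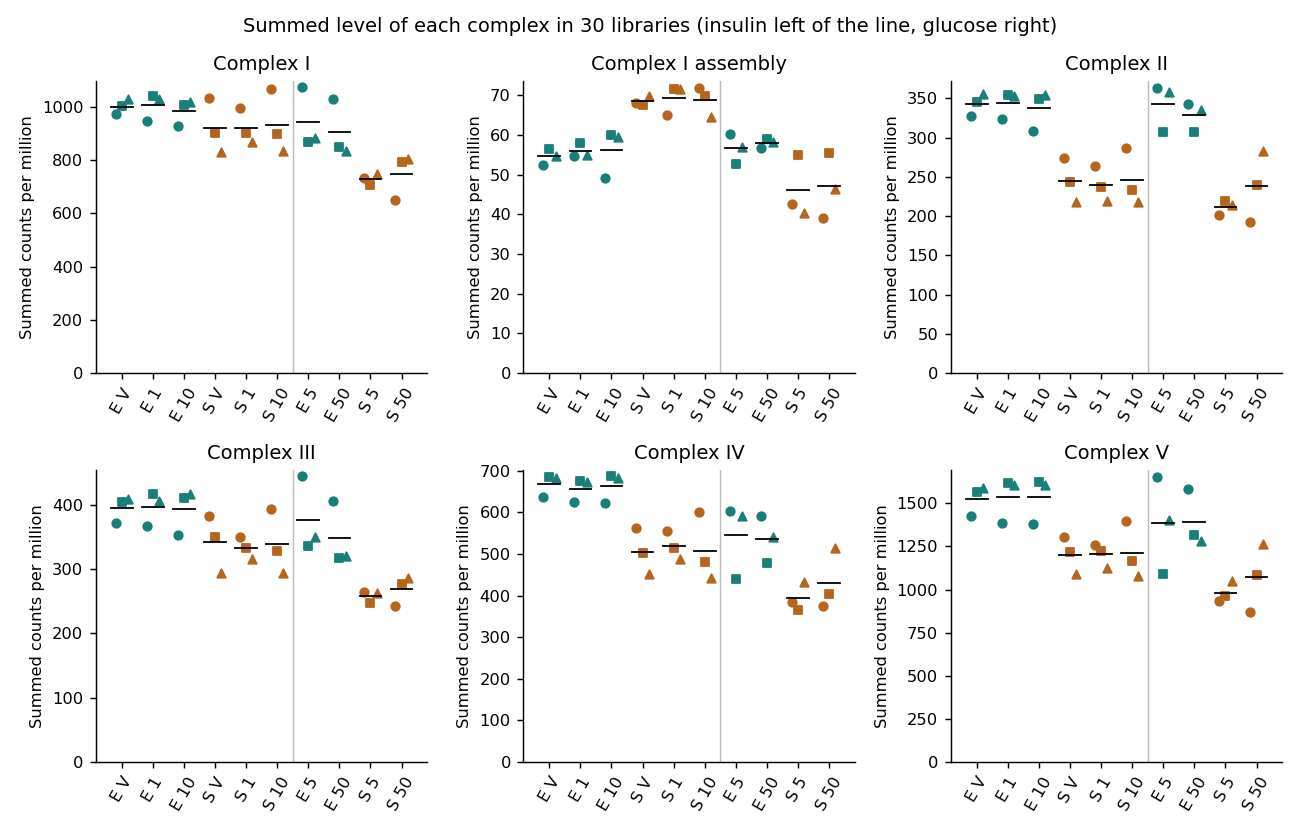
Summed level (CPM, vertical axis from 0) of the genes of each complex in each of the 30 libraries, 1 panel per complex. Columns are groups (E epithelial, S stromal; V, 1 and 10 for vehicle and ng/mL insulin; 5 and 50 for mM glucose), teal points are epithelial and brown points stromal, marker shape gives the replicate (circle 1, square 2, triangle 3), and bars are group means; the assembly factor panel has epithelial insulin libraries at 49.0 to 59.9 CPM under stromal ones at 64.5 to 71.9 CPM, while complex II shows the reverse order.

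These ratios of CPM carry any difference in RNA composition between the cell types, so gene-level comparisons used composition factors (trimmed mean of M values, TMM). A gene was called when the Benjamini-Hochberg adjusted p from the edgeR quasi-likelihood test was under 0.05 over all genes tested and the log2 fold change was beyond 0.1. Without these factors the median log2 epithelial to stromal difference of all genes was 0.08, 0.11 and 0.10 in the vehicle, 1 ng/mL and 10 ng/mL comparisons and 0.22 and 0.18 at 5 mM and 50 mM glucose, in place of values from -0.01 to 0.03. The log2 differences given from here on were estimated with these factors unless another setting is named.

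In each insulin comparison of the cell types, the share of these genes that was called was smaller than the share of all genes. In the vehicle comparison, 17 of the 86 genes tested were higher and 12 lower in epithelial cells, while 55.2% of all genes tested were called (27.8% higher and 27.3% lower). At 1 ng/mL insulin 19 were higher and 16 lower of 87, against 58.9% of all genes (29.6% and 29.3%). At 10 ng/mL insulin 12 were higher and 13 lower of 85, against 54.4% of all genes (27.1% and 27.3%). The median log2 difference of the genes was 0.12, 0.06 and 0.04 in the 3 comparisons. Differences were also smaller in size: in the vehicle comparison the median absolute log2 difference was 0.32 for these genes and 0.62 for all genes, and 6 genes (6.98%) lay beyond a log2 difference of 1 against 34.5% of all genes. With the log2 limit of a call raised from 0.1 to 1, 6 genes were called in each of the 3 comparisons, against 32.9%, 33.8% and 32.7% of all genes. Without the composition factors the split moved toward epithelial cells, with 17 higher and 8 lower for vehicle, 26 and 8 at 1 ng/mL and 13 and 5 at 10 ng/mL. Leaving out single replicates lowered the counts to as few as 10 (vehicle, without replicate 1), 14 (1 ng/mL, without replicate 3) and 8 (10 ng/mL, without replicate 2 or 3). The shares of all genes called without the factors or without a replicate are not given here. A shift particular to these genes therefore cannot be read from those counts.

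The counts by complex stand against 27.8% of all genes called higher and 27.3% called lower in the vehicle comparison. Whether the complexes differed in their share of called genes was not tested. In the vehicle comparison, complexes IV and V had 4 of 12 and 5 of 17 genes called higher in epithelial cells and none called lower, with median log2 differences of 0.23 and 0.15. Complex I was mixed, with 6 higher and 7 lower of 37. Its 7 core subunits, which carry the flavin and iron-sulfur clusters, had a median log2 difference of 0.30 (2 higher, 1 lower), and its 30 supernumerary subunits a median of 0.02 (4 higher, 6 lower). The assembly factors had 1 gene higher and 4 lower of 8, with a median of -0.63. Their share called in either direction was near the 55.2% of all genes. The shares of complexes IV and V called higher were near the 27.8% of all genes. At 1 and 10 ng/mL insulin the assembly factors again had 4 and 3 genes lower, with medians of -0.53 and -0.48. Of all genes, 29.3% and 27.3% were called lower there. Complex IV again had no gene called lower.

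**Figure D2:**
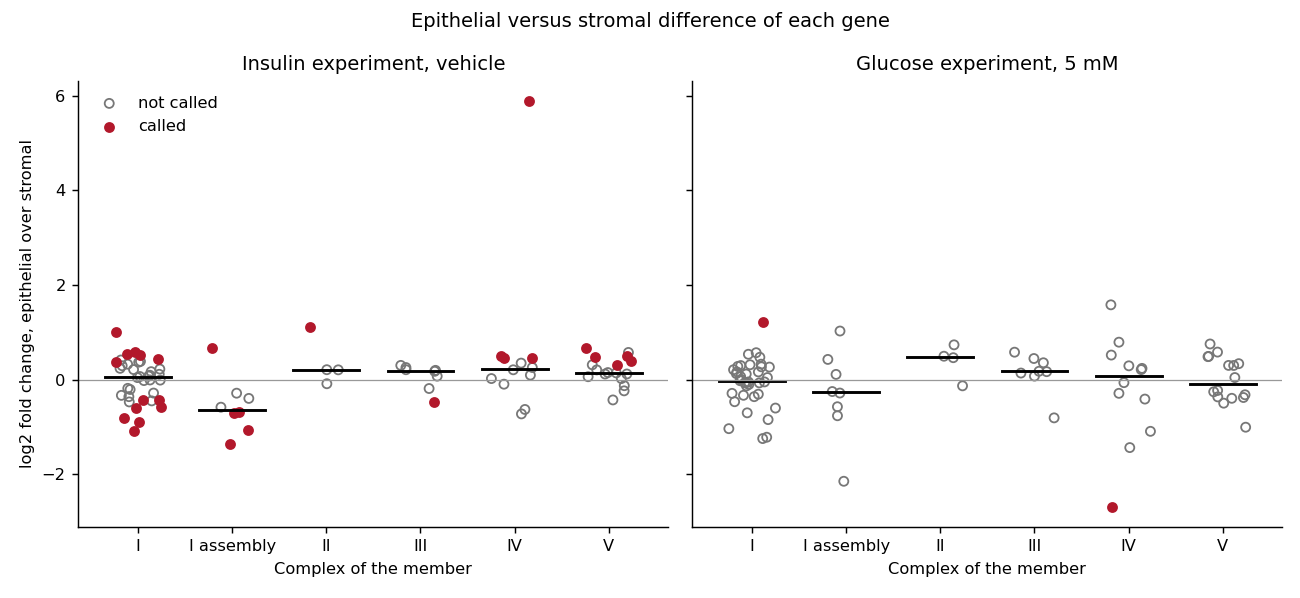
Log2 difference of epithelial over stromal cells (vertical axis) for each gene, by complex, in the insulin vehicle comparison and at 5 mM glucose. Filled red points were called (adjusted p under 0.05), open points were not, and bars are medians; in the vehicle panel the assembly factors have a median of -0.63 and complexes IV and V have called genes on the higher side only, while at 5 mM glucose 2 genes in all were called.

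NDUFV3, an accessory subunit in the NADH dehydrogenase module of complex I, was the 1 gene called in the same direction in all 5 epithelial to stromal comparisons, of 84 genes tested in all (1.19%, against 13.2% of all genes). In the vehicle groups its levels were 65.9, 65.4 and 82.4 CPM in epithelial replicates 1, 2 and 3 and 38.1, 31.1 and 31.2 CPM in stromal replicates. At 5 mM glucose they were 74.7, 66.4 and 87.1 CPM in the epithelial and 30.9, 25.7 and 27.8 CPM in stromal libraries. At 50 mM glucose they were 73.9, 62.4 and 87.9 CPM in the epithelial and 32.3, 31.4 and 64.3 CPM in stromal libraries. The groups were separate in all comparisons but that at 50 mM, where stromal replicate 3, the library with the epithelial markers, lay above epithelial replicate 2. The log2 difference was 1.01 (SE 0.113, adjusted p = 0.00273) for vehicle, 0.90 (SE 0.109, adjusted p = 0.00134) at 1 ng/mL and 1.03 (SE 0.115, adjusted p = 0.00296) at 10 ng/mL insulin. It was 1.22 (SE 0.30, adjusted p = 0.0361) at 5 mM and 0.73 (SE 0.177, adjusted p = 0.0479) at 50 mM glucose. Across the 8 alternative settings it was called in 3 to 5 of the 5 comparisons, with the fewest when replicate 1 was left out.

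The other called complex I subunits moved in both directions. Among the subunits of electron entry, NDUFS1, the large iron-sulfur subunit, was higher in epithelial cells in the vehicle comparison (log2 difference 0.53, SE 0.108, adjusted p = 0.0135) and at 1 ng/mL insulin (0.48, SE 0.122, adjusted p = 0.0190), with 0.40 (adjusted p = 0.0783) at 10 ng/mL. NDUFV1, the flavoprotein that binds NADH, was lower in the vehicle comparison (-0.43, SE 0.131, adjusted p = 0.0460) and at 10 ng/mL (-0.45, SE 0.124, adjusted p = 0.0353), with -0.29 (adjusted p = 0.0611) at 1 ng/mL. These are neighbours in the enzyme, and NDUFV3 belongs to the same module, yet NDUFV1 was the only 1 of the 3 with negative log2 differences in the insulin experiment.

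The next genes were chosen after their values were seen, as those called in the same direction in all 3 insulin comparisons. There were 9 higher and 9 lower of 85 (21.2%, against 48.5% of all genes). ATP5MC2, NDUFA4L2, NDUFV3 and SDHD (higher) and NDUFA5 and NDUFS5 (lower) were the 6 that were so called under each of the 8 alternative settings. The 5 lower complex I subunits were NDUFA5, NDUFS5, NDUFB4, NDUFB9 and NDUFB11. All are supernumerary, as are 30 of the 37 complex I subunits, so the class of these 5 carries little information. NDUFB4 and NDUFB9 were so called in 4 of 9 settings, the reported one included. NDUFA5 sits at the matrix arm, while NDUFS5 and the NDUFB subunits belong to the membrane arm.

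NDUFA5 measured 11.2, 10.3 and 10.5 CPM in epithelial vehicle libraries and 22.5, 20.1 and 21.9 CPM in stromal vehicle libraries. Over the insulin experiment it was 9.87 to 13.1 CPM in the epithelial and 17.8 to 26.6 CPM in stromal libraries, with no overlap. The log2 difference for vehicle was -1.08 (SE 0.131, adjusted p = 0.00321), with -1.13 and -1.12 at 1 and 10 ng/mL insulin. NDUFS5 measured 27.1, 24.0 and 22.4 CPM in the epithelial and 42.9, 44.9 and 41.3 CPM in stromal vehicle libraries, also separate (log2 difference -0.89, SE 0.133, adjusted p = 0.00556). Neither gene was called in the glucose experiment. There NDUFA5 was 13.0, 1.93 and 6.71 CPM in epithelial 5 mM libraries and 9.45, 13.1 and 8.66 CPM in stromal 5 mM libraries. NDUFS5 was 24.6, 32.2 and 20.3 CPM in the epithelial and 23.1, 22.3 and 22.6 CPM in stromal 5 mM libraries. The stromal levels of both genes were lower in the glucose than in the insulin experiment, a difference that was not tested, and the epithelial and stromal groups overlapped.

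Of the 8 assembly factors, NDUFAF1, NDUFAF2 and NDUFAF8 were lower and NDUFAF3 higher in epithelial cells in all 3 insulin comparisons. This share was near that of all genes, of which 48.5% were called in the same direction in all 3. NDUFAF1 acts on the membrane arm of complex I, and NDUFAF3 in the joining of the matrix arm to the membrane. NDUFAF8 measured 2.79 to 4.97 CPM in the epithelial and 6.73 to 10.7 CPM in stromal insulin libraries, with log2 differences of -1.06, -1.35 and -1.17 (adjusted p = 0.0186, 0.00490 and 0.0144). NDUFAF3 ran the other way, at 11.0 to 13.3 CPM in the epithelial and 5.00 to 8.13 CPM in stromal insulin libraries (log2 differences 0.68, 0.82 and 0.85). In the glucose experiment NDUFAF3 was 10.1 to 23.1 CPM in the epithelial and 5.13 to 8.08 CPM in stromal libraries, again without overlap, and the log2 differences of 1.03 and 0.75 had adjusted p = 0.130 and 0.0511. NDUFAF2 was counted at 50 or fewer reads in every library, with 0.210 to 1.18 CPM in the epithelial and 2.17 to 4.03 CPM in stromal insulin libraries. NDUFAF1, NDUFAF2 and NDUFAF3 each lost the call in at least 1 insulin comparison when any single replicate was left out.

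SDHD, a small membrane anchor of complex II that helps bind ubiquinone, was the 1 gene of that complex called in any cell type comparison. It measured 106, 122 and 119 CPM in epithelial vehicle libraries and 57.6, 53.7 and 40.9 CPM in stromal vehicle libraries. All 9 epithelial insulin libraries (104 to 122 CPM) lay above all 9 stromal ones (40.9 to 59.5 CPM). The log2 difference was 1.12 (SE 0.119, adjusted p = 0.00245) for vehicle, 1.11 (SE 0.109, adjusted p = 0.000688) at 1 ng/mL and 1.06 (SE 0.115, adjusted p = 0.00278) at 10 ng/mL. SDHD in the glucose experiment was 76.3, 33.0 and 118 CPM in epithelial 5 mM libraries against 34.1, 31.4 and 38.4 CPM in stromal ones. At 50 mM it was 82.4, 85.8 and 105 CPM in the epithelial and 32.3, 38.4 and 81.6 CPM in stromal libraries. It was higher in the epithelial library of every pair, but epithelial 5 mM replicate 2 lay within the stromal range and stromal 50 mM replicate 3 just under the epithelial range (log2 differences 0.74 and 0.81, adjusted p = 0.248 and 0.0566). SDHA, the flavoprotein that oxidizes succinate, had log2 differences of 0.14 to 0.50 over the 5 comparisons, SDHB, the iron-sulfur subunit, -0.23 to -0.08, and SDHC, the other anchor, 0.21 to 0.47.

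Few complex III genes were called between cell types, against 55.2%, 58.9% and 54.4% of all genes in the insulin comparisons. Of the 8, none was higher and 1 lower in the vehicle comparison, 2 higher and 1 lower at 1 ng/mL, and 1 higher and 1 lower at 10 ng/mL. The lower gene was UQCRB, a subunit near the ubiquinone site, with log2 differences of -0.47, -0.39 and -0.48, and its call in all 3 comparisons was lost under each of the 8 alternative settings. The hinge protein UQCRH, at 65.3 to 75.6 CPM in the epithelial and 43.8 to 57.6 CPM in stromal insulin libraries, was called at 1 ng/mL (0.45, adjusted p = 0.0113) and 10 ng/mL (0.34, adjusted p = 0.0311), with 0.30 (adjusted p = 0.0527) for vehicle. The core subunits UQCRC1 and UQCRC2 were not called in any comparison, and the Rieske iron-sulfur protein UQCRFS1 was called at 1 ng/mL only (0.39, adjusted p = 0.0415).

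In complex IV, NDUFA4L2 had the largest difference between cell types of all 88 genes in the insulin experiment. This gene is a hypoxia-inducible paralogue of NDUFA4, a complex IV subunit. It measured 27.8, 23.5 and 39.3 CPM in epithelial vehicle libraries, and 22.5 to 41.1 CPM over all 9 epithelial insulin libraries. In the 9 stromal insulin libraries it measured 0.0926 to 0.975 CPM, on 1 to 12 reads. Summed over replicates it had 1001 epithelial against 15 stromal reads for vehicle, a ratio of 63.9 after division by the library totals (exact binomial 95% interval 38.6 to 115, counting error only). The ratio was 111 (58.3 to 244) at 1 ng/mL and 56.2 (36.2 to 92.5) at 10 ng/mL, and the gene was called in all 3 comparisons (adjusted p = 0.000914, 0.000169 and 0.00124). NDUFA4 itself measured 73.8 to 88.5 CPM in the epithelial and 49.2 to 73.9 CPM in stromal insulin libraries, with log2 differences of 0.35, 0.20 and 0.32, and was not called.

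The NDUFA4L2 levels of the glucose experiment spread widely within each cell type. Epithelial replicates 1, 2 and 3 measured 0.466, 26.2 and 45.4 CPM at 5 mM and 0.978, 13.1 and 40.4 CPM at 50 mM. Stromal replicates measured 0.912, 4.46 and 6.77 CPM at 5 mM and 2.00, 5.66 and 18.2 CPM at 50 mM. Replicate 1 was the lowest and replicate 3 the highest in all 4 groups, and in replicate 1 the epithelial library was below the stromal one at both concentrations. The log2 differences between cell types were 1.58 (SE 0.805, adjusted p = 0.243) and 0.51 (SE 0.494, adjusted p = 0.512). Epithelial markers in the stromal 5 mM libraries ran in the opposite order, at 551, 326 and 76.1 CPM in replicates 1, 2 and 3. In the stromal 50 mM libraries they were 1248, 966 and 4912 CPM, with replicate 3 the highest in these markers and in NDUFA4L2. The part of these markers' cells in the NDUFA4L2 levels was not tested. The difference between the experiments in the epithelial to stromal contrast at matched 5 mM glucose was 4.25 on the log2 scale (SE 0.990, unadjusted p = 0.00320, adjusted p = 0.350), which did not pass the threshold, where 0.0% of all genes were called and 8 of these genes had an unadjusted p under 0.05. That test was added after the data were seen, and DESeq2 called 1 of the members in it.

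Several complex IV subunits have isoforms with different tissue ranges. COX4I1, the general form of subunit 4, was higher in epithelial cells at 141 to 154 CPM against 92.1 to 125 CPM in stromal insulin libraries (log2 differences 0.46, 0.38 and 0.39, adjusted p = 0.0128, 0.0260 and 0.0417). COX8A, a small membrane subunit, was higher by 0.49, 0.57 and 0.67 (adjusted p = 0.0345, 0.0404 and 0.0314). COX7A2L, a factor in joining complexes III and IV, was called for vehicle (0.45) and 1 ng/mL (0.34), with 0.28 at 10 ng/mL. COX6A1 and COX6B1, the general forms of subunits 6A and 6B, were not called in any comparison. The testis form COX6B2 stayed at 0.263 to 10.7 CPM over the 30 libraries, COX7B at 0.222 to 2.16 CPM (called at 1 ng/mL with a log2 difference of 1.09 and adjusted p = 0.0403, not called at 50 mM glucose and too low to be tested in the other 3 comparisons) and COX7A2 at 0.562 to 5.91 CPM. COX7A1, the heart and muscle form of subunit 7A, was the 1 gene of complex IV called lower, and only in the glucose experiment. It had 3, 1 and 27 reads in epithelial and 35, 15 and 73 reads in stromal 5 mM libraries, and 5, 4 and 12 against 37, 14 and 33 reads at 50 mM. The stromal library was higher in every pair, the groups overlapped at 5 mM, and the log2 differences were -2.68 (SE 0.698, adjusted p = 0.0432) and -2.20 (SE 0.494, adjusted p = 0.0405).

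Of the 13078 genes tested in all 3 insulin comparisons, 3183 were called higher in each. In complex V, 3 of 18 genes were so called, with ATP5F1E too low to be tested. The first, ATP5MC2, which like ATP5MC1 and ATP5MC3 encodes the identical mature c subunit of the proton-driven ring, was 60.4 to 80.9 CPM in the epithelial and 34.1 to 50.8 CPM in stromal insulin libraries. Its log2 differences were 0.67 (SE 0.0982, adjusted p = 0.00530), 0.61 (SE 0.0947, adjusted p = 0.00316) and 0.80 (SE 0.0977, adjusted p = 0.00355). ATP5MC3 was called for vehicle (0.32) and 1 ng/mL (0.37), while ATP5MC1 had log2 differences of -0.43, -0.19 and -0.24 and was not called. The c-ring genes thus differed in direction, and reads were counted only where they mapped to 1 place, so genes with near-identical copies are uncertain. ATP5F1D, the delta subunit of the central rotor, was 117 to 133 CPM in the epithelial and 70.1 to 96.9 CPM in stromal insulin libraries (0.51, 0.48 and 0.43). ATP5PD, a peripheral stalk subunit, was 64.4 to 74.6 CPM and 40.4 to 55.5 CPM (0.49, 0.43 and 0.44). ATP5PF, also of the peripheral stalk, was lower at 1 ng/mL (-0.34, adjusted p = 0.0232) and had -0.13 and -0.20 for vehicle and 10 ng/mL. Of the catalytic head, ATP5F1A (alpha) was called for vehicle only (0.40, adjusted p = 0.0462), and ATP5F1B (beta) in no comparison (0.23 to 0.49). ATP5IF1, which inhibits ATP hydrolysis by the enzyme, was not called in any comparison, with log2 differences of -0.01 to 0.39.

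**Figure D3:**
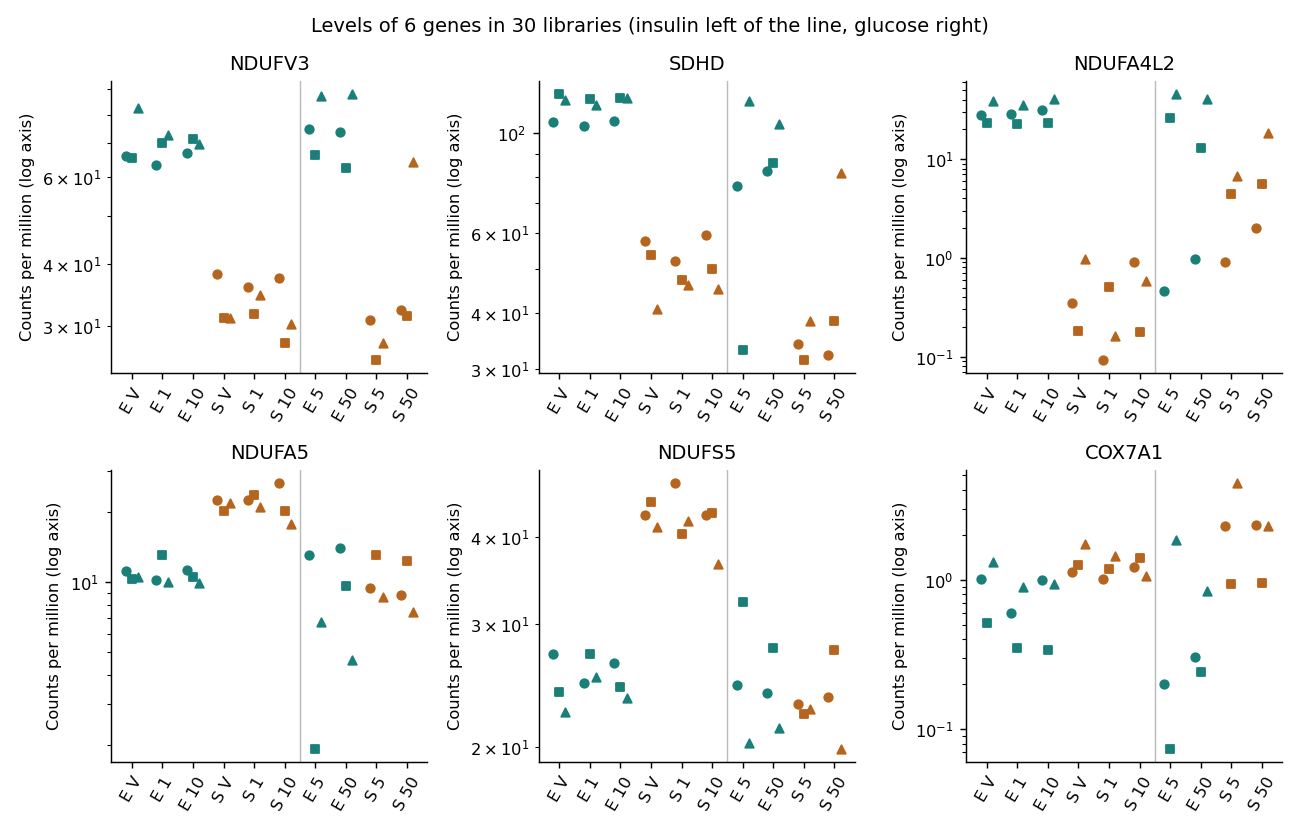
Levels (CPM, logarithmic vertical axis) of NDUFV3, SDHD, NDUFA4L2, NDUFA5, NDUFS5 and COX7A1 in every library, with groups in columns, teal for epithelial and brown for stromal cells, and marker shape for the replicate. NDUFA4L2 sits at 22.5 to 41.1 CPM in the epithelial and under 1 CPM in stromal insulin libraries, while in the glucose experiment its replicate 1 libraries are the lowest in all 4 groups.

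Far fewer genes passed the test in the glucose experiment. At 5 mM glucose 1 gene was higher and 1 lower of 85 tested, against 21.1% of all genes called (10.5% higher and 10.6% lower), and at 50 mM again 1 and 1 of 87, against 17.3% of all genes (6.39% and 10.9%). NDUFV3 was the higher and COX7A1 the lower gene both times, 2.35% of the 85 genes tested in both, against 13.8% of all genes. The median log2 difference of the genes was 0.05 at 5 mM and 0.12 at 50 mM, and 6 and 7 of them had an unadjusted p under 0.05. At 5 mM 11 genes (12.9%) were beyond a log2 difference of 1, against 35.6% of all genes. At 50 mM 1 gene (1.15%) was, against 24.3%, and with the log2 limit of a call at 1 it was the 1 gene called, against 14.6% of all genes. Without replicate 3, which includes the stromal library with epithelial markers, 4 genes were called at 50 mM, and without replicate 1 none was. The shares of all genes called without these replicates are not given here. Over both experiments, 41 of the 88 genes were called in at least 1 of the 5 cell type comparisons and 47 in none. The 47 include ATP5F1E, which was too low to be tested in any of them. Of all genes tested, 58.9% were called in the 1 ng/mL comparison alone.

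High glucose did not change any of the 88 genes past the threshold. Of the 87 tested in each cell type, none was called in epithelial or stromal cells, where 0.0% of all genes were called in both, and DESeq2 called none of them. In epithelial cells none had an unadjusted p under 0.05, against 1.55% of all genes. The log2 differences of 50 mM over 5 mM ran from -0.60 to 1.04 with a median of 0.12 in epithelial cells. Their interquartile range was 0.548, and 0.130 with a median of -0.05 when replicate 2 was left out, so the spread rested on those libraries. In stromal cells the log2 differences ran from -0.86 to 1.02 with a median of -0.02, and NDUFA4L2 was the 1 gene with an unadjusted p under 0.05 (log2 difference 0.89, adjusted p = 0.696). In the same comparison all 14 epithelial markers had log2 differences above 0 (median 4.75, none called), and the highest NDUFA4L2 level, 18.2 CPM, was in stromal 50 mM replicate 3, the library with epithelial markers at 59.2% of the epithelial mean. Their part in this difference was not tested. The next smallest p-values belonged to ATP5MD (1.02) and NDUFV3 (0.46) in stromal cells. In epithelial cells the smallest belonged to NDUFA13 (-0.52), NDUFAF1 (0.54) and NDUFV1 (-0.60), with adjusted p = 0.804 for each. The summed level of the 88 genes in the epithelial chamber averaged 3647 ± 554 CPM with 5 mM and 3567 ± 381 CPM with 50 mM glucose (SD over 3 libraries). In the stromal chamber it averaged 2619 ± 111 and 2806 ± 418 CPM, and both differences were smaller than the larger SD of the groups compared. These SDs do not use the replicate numbers. Within replicates 1, 2 and 3 the sum went from 4202 to 4007, 3094 to 3327 and 3646 to 3368 CPM in epithelial libraries. In stromal libraries it went from 2555 to 2366, 2556 to 2853 and 2747 to 3198 CPM, so the direction varied in both.

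Insulin at 1 or 10 ng/mL also gave no call among these genes in either cell type. For vehicle, 1 and 10 ng/mL the summed level averaged 3989 ± 172, 3995 ± 255 and 3972 ± 287 CPM in the epithelial chamber (SD over 3 libraries). The stromal averages were 3284 ± 335, 3286 ± 201 and 3307 ± 457 CPM. In epithelial cells 0 of 84 genes were called at 1 ng/mL against vehicle (5 with an unadjusted p under 0.05), 0 at 10 ng/mL against vehicle (4) and 0 at 10 against 1 ng/mL (1), where 0.0%, 0.124% and 0.0% of all genes were called. In stromal cells 0 of 85, 85 and 86 genes were called in the same comparisons (5, 1 and 2 with an unadjusted p under 0.05), where 0.0157%, 0.0% and 0.0313% of all genes were called. DESeq2 called none of the 88 genes in any of these 6 comparisons. The medians of the log2 differences lay between -0.04 and 0.04.

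The genes nearest to the threshold had small differences. COX7A2L was 85.2, 85.3 and 81.8 CPM in epithelial vehicle libraries and 79.1, 75.9 and 70.1 CPM at 10 ng/mL insulin, lower in every pair and without overlap. Its log2 difference was -0.17 (SE 0.0509, unadjusted p = 0.00167, adjusted p = 0.285). NDUFA6, a supernumerary complex I subunit, was 11.6, 10.9 and 7.15 CPM in stromal vehicle libraries, 14.4, 12.0 and 12.5 CPM at 1 ng/mL and 14.5, 12.4 and 11.3 CPM at 10 ng/mL. The vehicle libraries were below those at 1 ng/mL, while the 10 ng/mL group overlapped with vehicle (log2 differences 0.42 and 0.38, unadjusted p = 0.00989 and 0.0148, adjusted p = 0.870 at 1 ng/mL). COX8A (0.19), NDUFB4 (0.27) and NDUFS4 (-0.16) had the smallest p-values in epithelial cells at 1 ng/mL. The tests of a difference between cell types in the response called none of the 88 genes for glucose, 1 ng/mL or 10 ng/mL insulin, where 0.0%, 0.658% and 0.0% of all genes were called, and 0, 6 and 5 of them had an unadjusted p under 0.05. On simulated counts the glucose test of this kind recovered 0 of 100 genes changed by log2 1 and 3 of 100 changed by log2 2, so few differences of those sizes would be called.

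Epithelial 5 mM replicate 2 stood apart from the other libraries in these genes and in marker genes. Its epithelial markers summed to 15050 CPM, against 7377 to 8498 CPM in the other epithelial glucose libraries. Its endothelial markers, at 76.6 CPM, were the highest of the 30 libraries. Against the median of the other 5 epithelial glucose libraries, the log2 deviation of this library over the 88 genes had a median of -0.63 and an SD of 1.13, with 35 genes below -1 and 4 above 1. Whether that deviation was particular to these genes was not tested. In the other 29 libraries the SD was 0.193 to 0.723 and at most 5 genes lay beyond 1 in either direction. The lowest were ATP5MD (-3.89), NDUFA12 (-3.09), NDUFB1 (-3.01), NDUFB4 (-2.90), NDUFAF2 (-2.78) and UQCRB (-2.75), chosen after their values were seen. The summed share of the 13 subunits encoded in mitochondrial DNA was low in the same library, at 0.128% of its counts against 1.18% to 2.36% in the other 29. COX1, the catalytic subunit of complex IV, was 246 CPM there and 6655 to 11320 CPM in the other epithelial glucose libraries. MT-ND6, on the opposite strand of mitochondrial DNA from the rest, was 144 CPM against 112 to 156 CPM, and MT-ATP8, a small subunit of complex V, 29.4 CPM against 19.8 to 46.7 CPM, so neither left the range of the other epithelial glucose libraries. Without replicate 2, 4 genes were called between cell types at 5 mM glucose, and the share of all genes called in that setting is not given here.

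**Figure D4:**
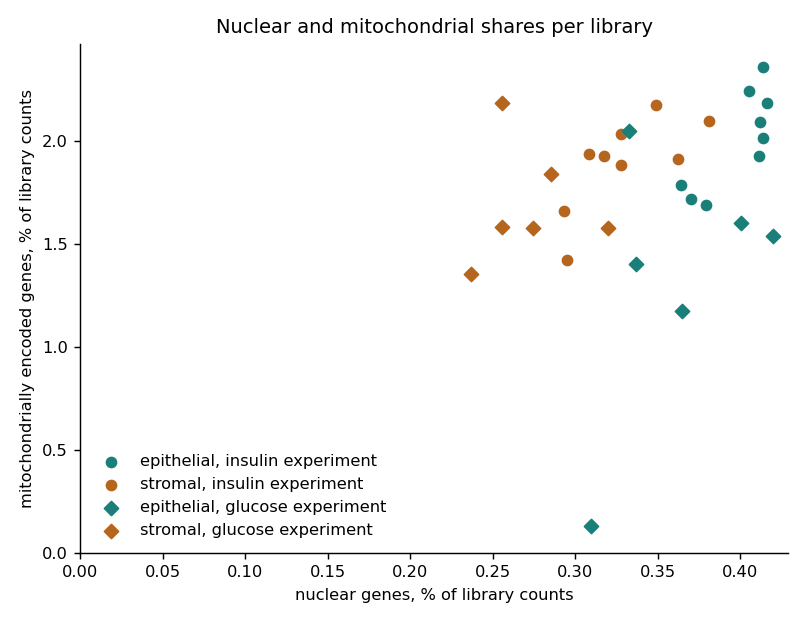
Share of counts (percent) of the 88 nuclear genes against that of the 13 mitochondrially encoded subunits, 1 point per library, teal for epithelial and brown for stromal cells, circles for the insulin and diamonds for the glucose experiment. Epithelial 5 mM replicate 2 lies alone at 0.128% mitochondrially encoded, and the other 29 libraries at 1.18% to 2.36%, while the nuclear share runs from 0.237% to 0.420%.

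Other genes of the pathway were read from lists outside the symbol rule, and their counts stand against 55.2%, 58.9%, 54.4%, 21.1% and 17.3% of all genes called in the vehicle, 1 ng/mL, 10 ng/mL, 5 mM and 50 mM comparisons. Of the 13 mitochondrially encoded subunits, 3 were higher in epithelial cells for vehicle, 1 was higher and 2 lower at 1 ng/mL, 4 were higher at 10 ng/mL, and 1 was higher at each glucose concentration. Of the assembly factors outside the NDUFAF series, 38 were tested in each comparison but that at 5 mM glucose (37), and 4 were higher and 3 lower for vehicle, 4 and 6 at 1 ng/mL, 3 and 3 at 10 ng/mL, and 1 was higher at each glucose concentration. CYC1, the cytochrome of complex III, was higher for vehicle only (log2 difference 0.41), and CYCS, its electron acceptor, was not called. The general mitochondrial genes (10 genes in 11 count rows, among them CS, VDAC1 and HSPD1) had 3 higher and 1 lower in each insulin comparison and none in the glucose experiment.

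Of the 11 regulators of these genes' transcription, 2 were higher and 5 lower for vehicle, and 3 higher and 4 lower at 1 ng/mL and again at 10 ng/mL (63.6% each), a share near that of all genes. At 5 mM and 50 mM glucose 3 (27.3%) and 2 (18.2%) were called, also near the shares of all genes. The coactivator PPARGC1B was higher in epithelial cells in all 5 comparisons, at 25.4 to 60.2 CPM in the epithelial and 3.95 to 6.74 CPM in stromal insulin libraries (adjusted p = 0.00247, 0.000212 and 0.00264). Its log2 differences were 2.79, 3.39 and 2.73 in the insulin and 4.26 and 2.20 in the glucose experiment. Its relative PPARGC1A was lower in epithelial cells in all 5, at 0 to 0.298 CPM against 1.15 to 4.30 CPM in stromal insulin libraries, with 4 of the 9 epithelial libraries at 0. In the glucose experiment PPARGC1A was 0 to 1.20 CPM in the epithelial and 2.80 to 24.6 CPM in stromal libraries. ESRRA, the nuclear receptor that both coactivate, was higher in epithelial cells in 4 comparisons, with adjusted p = 0.0971 at 50 mM glucose. In the 8 treatment comparisons no gene of the assembly, regulator, cytochrome or general mitochondrial lists was called. The mitochondrially encoded genes had 4 called higher in epithelial cells at 10 ng/mL insulin against vehicle, where 0.124% of all genes were called. There were 4 or 5 in 5 of the 8 alternative settings, and none when DESeq2 was used, when replicate 3 was left out or without the replicate block. Between 12 and 13 of the 13 had a log2 difference above 0 in every setting, and MT-ATP8 had 0.42 as reported, 0.43 by DESeq2, 0.42 without the block and 0.35 without replicate 3. All settings drew on the same 6 libraries, so genes and settings here are not separate evidence of a change.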

How the data were processed

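Libraries were 75-bp single-end stranded RNA-seq. Per the study's methods, reads were trimmed with Cutadapt and FASTX, aligned with Rsubread to the Ensembl release 96 cattle genome and, where uniquely mapped, counted per gene with featureCounts. The values used are the raw counts the authors deposited. Deposited comparison tables (fold changes, p-values) served only for gene names and biotypes. Counts were tested with edgeR 4.0.16 in R 4.3.3 (quasi-likelihood test, TMM, filterByExpr, replicate number as a block because the methods state a paired design), 6 libraries per comparison, 13 comparisons, with Benjamini-Hochberg adjustment over all genes tested; genes were called at adjusted p under 0.05 and log2 fold change beyond 0.1. Differences of effects were tested as interaction contrasts. Levels are CPM. Alternatives were DESeq2 1.42.0, its size factors, no low-count filter, no block, leaving out each replicate, a log2 fold limit of 1 and, chosen after seeing the data, total counts without TMM.

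Genes and lists were chosen with earlier results of these data known. The naming rule covered members called in all 5 cell type comparisons, the 3 smallest p-values per treatment comparison, isoform families and fixed catalytic subunits. Most others are marked as chosen after their values were seen. ATP5PF, ATP5MC1, ATP5MC3 and the genes described singly from the lists outside the symbol rule carry no mark. These too were outside the naming rule and were named with their values known. Same-numbered libraries deviated together (every pair's correlation over 0.1) in 8 of 8 treatment and 3 of 5 cell type comparisons, down to 0.037 in the latter. Counts were simulated with each gene's mean averaged over the groups within each replicate block. For the vehicle cell type comparison (13395 genes), 80 of 100 genes changed by log2 2 and 32 of 100 by log2 1 were recovered. No other genes were changed there, while 55.2% of all genes were called in the data. The adjusted p depends on how many genes differ, so recovery in the data can be different. For glucose in epithelial cells (13713 genes) 66 and 2 were recovered, and for the difference of the glucose effect (14640 genes) 3 and 0. Unchanged genes that were called numbered 13, 0 and 2 in these 3 simulations. Intervals cover counting error only. Some of the smallest p-values at 10 against 1 ng/mL insulin are not reported here.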

Additional observations from a re-analysis of the deposited data

How the results depend on the processing

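None of the 88 genes was called in the 8 treatment comparisons or in the 3 planned difference tests under any alternative; the difference between experiments, with none called as reported, had 1 called by DESeq2. The cell type counts depended on the libraries used. Leaving out 1 replicate, the genes called ranged from 10 to 14 for vehicle (29 as reported), 14 to 21 at 1 ng/mL (35), 8 to 19 at 10 ng/mL (25), 1 to 4 at 5 mM glucose (2) and 0 to 4 at 50 mM (2). DESeq2 called 19 at 1 ng/mL and 16 at 10 ng/mL. Without the replicate block 1 was called at 5 mM and 0 at 50 mM. DESeq2 size factors gave 1 at 50 mM, and total counts without TMM 1 at 5 mM and 4 at 50 mM. With a log2 fold limit of 1, 6 were called in each insulin comparison and 1 at 50 mM. COX6B1, not called, had 0.03 for vehicle and between -0.001 and 0.044 when a replicate was left out, below 0 without replicate 2. In the 3 insulin comparisons together, 18 genes were called as reported, 18 with DESeq2 size factors, 16 without the filter, 12 with DESeq2, 23 without the replicate block, 17 without TMM and 7 without each replicate in turn. The shares of all genes called under the same alternatives are not given here, so these counts do not show a shift particular to the 88 genes. The cause of these shifts was not tested. Leaving out a replicate changed both which libraries were used and their number. On simulated counts of the epithelial glucose comparison, 2 of 100 genes changed by log2 1 were recovered, so the absence of calls there does not exclude changes of that size.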
